A study of Mus musculus with 2 samples.

Results

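The genes described here are 9 genes of antigen presentation, followed across the cells of mouse pancreatic ductal adenocarcinoma measured by single-cell RNA sequencing. They were chosen by symbol, with earlier results of these data known. H2-K1 and H2-D1 are the classical class I heavy chains, and B2m is the light chain shared by class I molecules. Tap1 and Tapbp belong to the peptide-loading machinery, and Psmb8 and Psmb9 are catalytic subunits of the immunoproteasome. Nlrc5 is the transactivator of class I genes, and Cd74 is the class II invariant chain. Rows for 9 of 9 were found in both count tables, among 55361 features. The tables came from 2 libraries: 1 held cells of the whole tumour, and 1, termed CD9hi below, those selected by sorting for much CD9 on the cell surface. Per the series text, both came from the KPFRR mouse model, which carries Pdx1-Flp (Flp recombinase under a promoter active in the developing pancreas), Trp53 frt/frt, Rosa26 FSF-creER and the Rosa26 mTmG membrane reporter. The alleles were therefore common to both libraries. The sources used here do not say how many tumours or animals each library pools. Per its title the study concerns a hybrid epithelial-mesenchymal state among CD9-high cells, which is why the genes are followed over Epcam and Vim. The series text names GFP+ cells and the protocol names sorting on GFP or CD9. With 1 library a group there is no replicate check and no test between groups, and intervals cover counting error only.

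Class I molecules show peptides from proteins made inside the cell to CD8 T cells. The peptides are cut by the proteasome, whose inducible subunits Psmb8 and Psmb9 replace constitutive ones in the immunoproteasome, then pumped into the endoplasmic reticulum by the transporter of which Tap1 is a subunit, and loaded with the help of Tapbp (tapasin) onto heavy chains paired with B2m. Class I, loading and immunoproteasome genes are known interferon targets, and Nlrc5 drives many of them. Cd74 belongs to the other route: it guards the peptide groove of class II molecules in antigen-presenting cells such as macrophages, dendritic cells and B cells. Loss of class I from the tumour cell surface is a known way for pancreatic cancer cells to escape T cells.

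Barcodes were kept from 500 genes and 1000 UMIs (unique molecular identifiers, each standing for 1 captured transcript) upwards, with a mitochondrial share of up to 20%. This left 2550 of 3082 in the whole tumour and 5092 of 5500 in CD9hi. Cells with a Ptprc UMI (CD45, the leukocyte marker) were set apart as Ptprc-positive, 13 and 30 cells, and Ptprc-free cells with at least 5% of UMIs from 16 acinar genes as acinar-enzyme-high, 383 and 4 cells. The remaining 2154 and 5058 cells are called tumour cells here by this rule. Their median depth was 17719.5 UMIs in the whole tumour and 21809.5 in CD9hi. They were split at 1000 CPM (UMIs per 1000000 UMIs) of Epcam, an epithelial adhesion protein, and of Vim, a mesenchymal filament protein. The Epcam-high Vim-low quadrant held 1328 cells (61.7%) of the whole tumour and 486 (9.61%) of CD9hi. The Epcam-low Vim-high quadrant held 328 (15.2%) and 3220 (63.7%), the Epcam-high Vim-high quadrant 327 and 1269, and the Epcam-low Vim-low quadrant 171 and 83. Cd9 transcripts stood at 1480 CPM among tumour cells of the whole tumour and 2373 CPM among those of CD9hi, whereas GFP had 0 UMIs in both libraries and TdTomato 6 and 10, so the reporter did not mark cells in these counts. The libraries shared 2 barcodes.

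RefSeq promoter windows (GRCm38.p6, 250 bases before to 50 after the gene start) were found for 7 of the 9 genes. Those of H2-K1, H2-D1, B2m and Tap1 are shown because the heavy chains moved together below while B2m did not follow them, and because Tap1 shares its start region with Psmb9. Capitals mark 4 motifs, searched on both strands with letters set after the sequences had been seen: AANNGAAA (the core read by interferon regulatory factors), GGGNNNNNCCC (the NF-kB form), TGACG (cyclic-AMP-response or X2 type) and CCAAT (Y box). Windows are H2-K1 chr17:34000298-34000597 (minus strand), H2-D1 chr17:35262844-35263143 (plus), B2m chr2:122147437-122147736 (plus) and Tap1 chr17:34187306-34187605 (plus), each printed along the gene's own strand.
H2-K1: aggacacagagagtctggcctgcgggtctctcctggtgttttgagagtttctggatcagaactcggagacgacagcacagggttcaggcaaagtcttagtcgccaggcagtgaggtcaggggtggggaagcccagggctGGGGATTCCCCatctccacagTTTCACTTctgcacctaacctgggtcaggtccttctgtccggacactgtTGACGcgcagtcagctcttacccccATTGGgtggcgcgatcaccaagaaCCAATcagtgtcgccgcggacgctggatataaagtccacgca
H2-D1: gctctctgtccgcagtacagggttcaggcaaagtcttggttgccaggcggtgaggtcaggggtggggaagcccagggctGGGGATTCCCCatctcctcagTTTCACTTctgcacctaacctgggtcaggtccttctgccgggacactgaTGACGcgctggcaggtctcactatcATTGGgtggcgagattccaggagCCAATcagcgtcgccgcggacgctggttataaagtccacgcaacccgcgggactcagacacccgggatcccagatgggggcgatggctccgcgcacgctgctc
B2m: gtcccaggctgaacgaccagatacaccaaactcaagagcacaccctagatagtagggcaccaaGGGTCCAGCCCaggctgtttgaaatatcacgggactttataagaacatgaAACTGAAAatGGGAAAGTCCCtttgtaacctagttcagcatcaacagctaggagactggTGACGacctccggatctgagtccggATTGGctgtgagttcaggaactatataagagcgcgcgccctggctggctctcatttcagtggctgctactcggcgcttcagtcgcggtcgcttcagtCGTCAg
Tap1: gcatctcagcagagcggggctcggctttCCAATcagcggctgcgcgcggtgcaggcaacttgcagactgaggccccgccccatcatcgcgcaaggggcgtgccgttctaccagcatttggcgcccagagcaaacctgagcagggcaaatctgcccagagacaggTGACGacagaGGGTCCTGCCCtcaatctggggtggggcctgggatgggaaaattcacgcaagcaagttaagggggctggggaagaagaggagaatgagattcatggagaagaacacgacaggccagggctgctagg
The windows of H2-K1, H2-D1 and B2m each held all 4 motifs, which 49 of 27025 promoters (0.181%) did. Because the letters were set with these sequences in view, that share does not measure how unusual the match is. Singly the motifs are common, in 24.2% of promoters for the interferon core, 13.8% for the NF-kB form, 21.0% for TGACG and 37.9% for CCAAT. In both heavy-chain windows the NF-kB form GGGGATTCCCC stands just upstream of the interferon core TTTCACTT, 111 and 90 bases before the start of H2-K1 and 171 and 150 before that of H2-D1, and 206 of 227 aligned bases (90.7%) are identical. B2m has its interferon core AACTGAAA 137 bases before the start, between 2 NF-kB forms at 187 and 127. Tap1 lies head to head with Psmb9: their windows overlap by 275 bases and share the NF-kB form, TGACG and CCAAT, with no interferon core match. The Tapbp window held CCAAT alone and the Psmb8 window none of the 4. A match is a description of these letters and not a mapped binding site.

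The heavy chains were lower in CD9hi than in whole-tumour cells, and lower in Epcam-low Vim-high than in Epcam-high Vim-low cells of both libraries. H2-K1 was at 232.5 CPM (95% exact Poisson interval 228 to 237) in all whole-tumour tumour cells and 98.0 CPM (96.2 to 99.8) in CD9hi, a log2 ratio of -1.25 (-1.29 to -1.21), or 2.37-fold lower. H2-D1 was at 283.5 and 146.7 CPM, a log2 ratio of -0.95 (-0.98 to -0.92). Of the 9 genes, 7 were at least 1.5-fold lower in CD9hi and 0 higher, whereas 29.7% of the 30420 genes with a UMI were at least 1.5-fold lower and 12.8% higher. The median log2 ratio was -1.25 over the 9 genes and -0.18 over all genes with a UMI. This is a rule of size between single libraries, not a test.

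By quadrant, in the order Epcam-high Vim-low, Epcam-high Vim-high, Epcam-low Vim-high and Epcam-low Vim-low, H2-K1 was at 266.8, 181.7, 101.0 and 361.3 CPM in the whole tumour. In CD9hi it was at 231.7, 130.4, 69.8 and 112.4 CPM in the same order. The first 3 quadrants therefore fell in 1 order in both libraries with no overlap of intervals within a library, and the Epcam-low Vim-low quadrant was the highest in the whole tumour but not in CD9hi. Markers of other cell types differ between the libraries in that quadrant: the whole tumour held 8410 CPM of summed acinar markers there and CD9hi 8.40 CPM, with islet markers at 13489 and 1655 CPM, and immune markers at 144.3 and 23.1 CPM. Their part in its class I levels was not tested. H2-D1 followed at 307.3, 268.9, 195.8 and 310.0 CPM in the whole tumour and 225.1, 176.7, 126.5 and 137.6 CPM in CD9hi. Its interval in whole-tumour Epcam-low Vim-low cells overlapped that of the Epcam-high Vim-low cells. The level of each heavy chain in Epcam-low Vim-high cells was lower than in Epcam-high Vim-low cells by a log2 ratio of -1.40 (-1.52 to -1.28) for H2-K1 and -0.65 (-0.74 to -0.56) for H2-D1 in the whole tumour. In CD9hi these ratios were -1.73 (-1.80 to -1.66) and -0.83 (-0.90 to -0.76). H2-K1 thus differed more along this axis than H2-D1 in each library, with intervals that do not overlap.

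**Figure D1:**
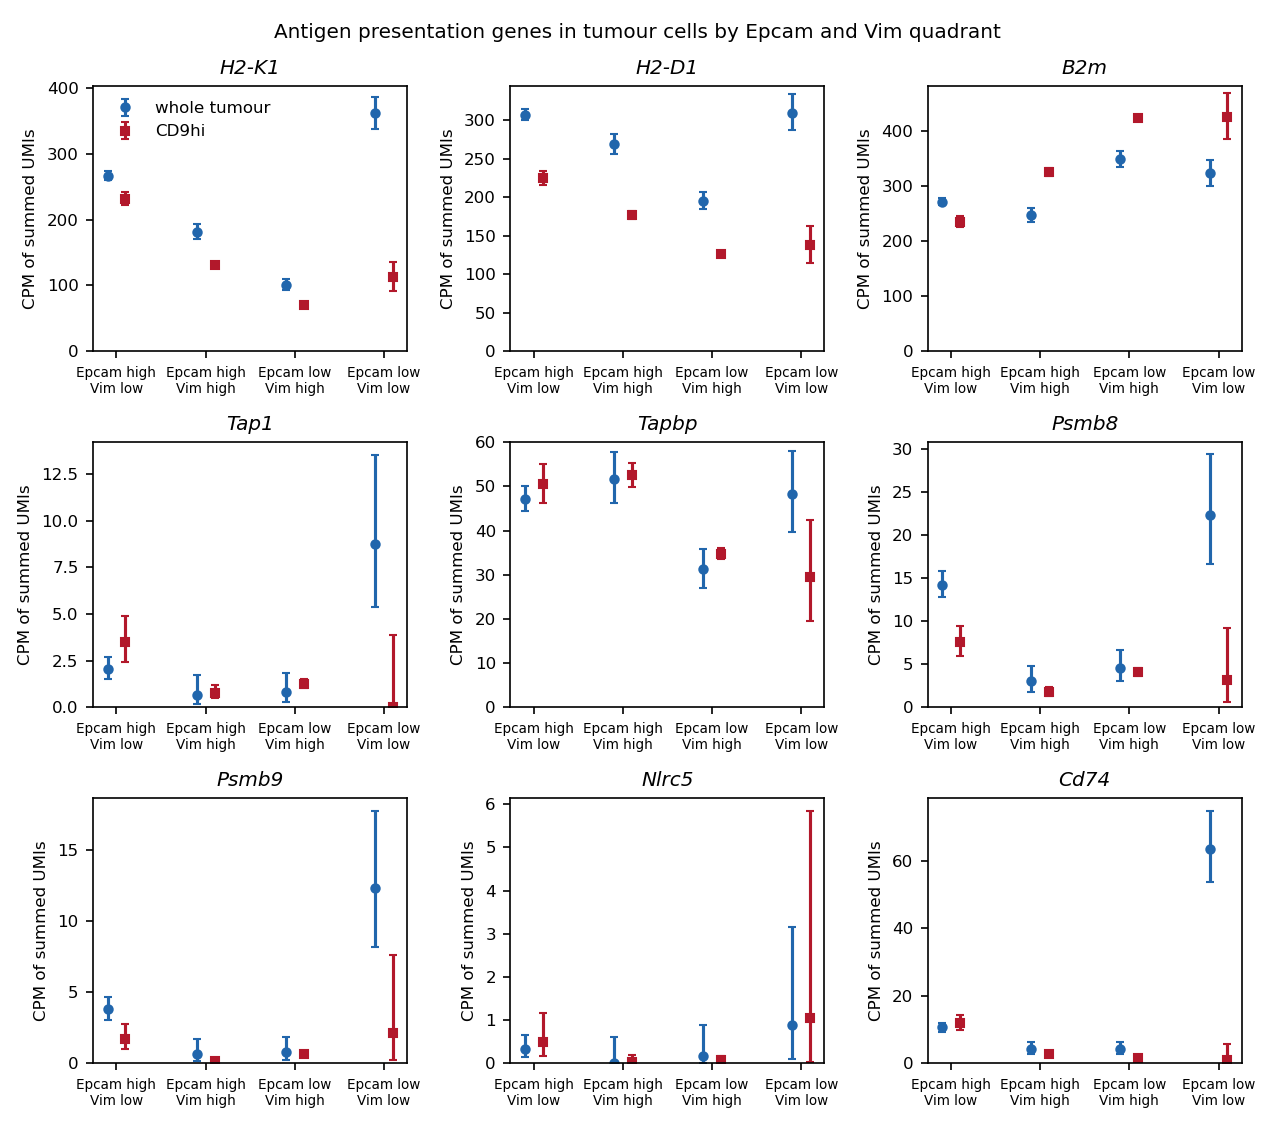
Level of each of the 9 genes (vertical axis, CPM of summed UMIs from 0) in the 4 Epcam and Vim quadrants of tumour cells (horizontal axis), circles for the whole tumour and squares for CD9hi, bars 95% exact Poisson intervals of counting error. H2-K1 falls from 266.8 to 101.0 CPM and from 231.7 to 69.8 CPM between Epcam-high Vim-low and Epcam-low Vim-high cells, while B2m goes the other way, from 271.7 to 349.3 CPM and from 235.8 to 424.0 CPM.

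The share of cells with a heavy-chain UMI was read both unthinned and after each cell had been thinned to 5000 UMIs, so that depth is equal. Unthinned, 86.3% of Epcam-high Vim-low and 68.6% of Epcam-low Vim-high whole-tumour cells had an H2-K1 UMI, and thinned 60.5% and 34.4%. In CD9hi the unthinned shares were 88.7% and 54.4% and the thinned ones 57.7% and 23.9%. Thinned H2-D1 shares were 69.0% and 52.2% in the whole tumour and 57.7% and 36.5% in CD9hi. Median depths of these quadrants were 17631 and 19698.5 UMIs in the whole tumour and 19418 and 22861.5 in CD9hi, so the quadrant with the lower share was the deeper. Thinned to 2000 UMIs, the H2-K1 share was still lower beyond its interval, at 36.1% and 16.9% in the whole tumour and 33.7% and 12.4% in CD9hi. The H2-D1 intervals then overlapped in the whole tumour, at 40.4% and 33.1%, and did not in CD9hi, at 34.7% and 19.9%. Malat1, a nuclear RNA used here as a sign of RNA quality, had a UMI in 100% of Epcam-high Vim-low and 91.8% of Epcam-low Vim-high CD9hi cells, and in 99.2% and 99.1% of those of the whole tumour. A minimum of 2000 Malat1 CPM left 480 of 486 and 2600 of 3220 CD9hi cells, and the ratios of Epcam-low Vim-high to Epcam-high Vim-low cells were then -1.56 for H2-K1, -0.78 for H2-D1 and 0.82 for B2m. No class here is known to lack class I: the acinar-enzyme-high cells of the whole tumour, at a median of 17598 UMIs, had an H2-K1 UMI in 80.2% of cells unthinned and 55.2% thinned, above the thinned share of Epcam-low Vim-high cells in both libraries.

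B2m, without which heavy chains do not reach the surface, did not follow them. It was at 283.7 CPM (278.4 to 289.0) in whole-tumour and 385.0 CPM (381.5 to 388.6) in CD9hi tumour cells, a log2 ratio of 0.44 (0.41 to 0.47), under the 1.5-fold rule. By quadrant in the order above it was at 271.7, 247.9, 349.3 and 324.0 CPM in the whole tumour. In CD9hi it was at 235.8, 325.6, 424.0 and 426.5 CPM. Its level was therefore higher in Epcam-low Vim-high than in Epcam-high Vim-low cells in both libraries, with a log2 ratio of 0.36 (0.29 to 0.43) in the whole tumour and 0.85 (0.79 to 0.91) in CD9hi. The Epcam-high Vim-high cells stood below the Epcam-high Vim-low cells in the whole tumour, at -0.13 (-0.21 to -0.05), and above them in CD9hi, at 0.47 (0.40 to 0.53). Thinned shares of cells with a B2m UMI were 65.6% and 76.4% in Epcam-high Vim-low and Epcam-low Vim-high cells of the whole tumour and 57.4% and 81.4% in CD9hi.

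Across all 9 genes, Epcam-low Vim-high against Epcam-high Vim-low cells gave 7 lower and 0 higher in the whole tumour, where 18.4% of 24822 genes with a UMI were lower and 16.6% higher. In CD9hi it gave 7 lower and 1 higher (B2m), where 25% of 28166 genes were lower and 11% higher. The median over the 9 genes was -1.24 in the whole tumour and -1.42 in CD9hi, beside -0.01 and -0.21 over all genes with a UMI. Of these counts, 2 lower genes in each library, H2-K1 and H2-D1, had a mean of at least 50 CPM, and the others that were lower are Psmb8, Psmb9, Tap1 and Cd74 in both, Tapbp in the whole tumour and Nlrc5 in CD9hi, described below. Epcam-high Vim-high cells, set against the same Epcam-high Vim-low cells, had 4 of the 9 genes lower and 0 higher in the whole tumour (15.4% and 15.3% of genes with a UMI) and 6 lower and 0 higher in CD9hi (21.2% and 6.72%). The 4 genes are Tap1, Psmb8, Psmb9 and Cd74, which H2-K1 and Nlrc5 joined in CD9hi. Summed fibroblast markers were at 2.30 and 228.6 CPM in the Epcam-high Vim-low and Epcam-low Vim-high cells of the whole tumour, and at 4.43 and 200.1 CPM in CD9hi. Leaving out cells with stromal or islet markers left H2-K1 at -1.43 and -1.71 and B2m at 0.33 and 0.78 in the whole tumour and CD9hi.

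Graded levels of Epcam and Vim replaced the single threshold. Over Epcam below 250, 250 to 1000, 1000 to 3000 and at least 3000 CPM of the cell, H2-K1 was at 48.2, 109.6, 140.6 and 187.5 CPM in CD9hi. In the whole tumour it was at 125.3, 190.3, 258.8 and 232.7 CPM, so that the top bin lay below its neighbour. B2m went down over the same bins, from 433.5 through 407.1 and 342.0 to 227.1 CPM in CD9hi and from 431.2 through 303.4 and 280.7 to 240.0 CPM in the whole tumour. Over the same bins of Vim, H2-K1 fell from 265.3 through 152.9 and 93.3 to 83.6 CPM in CD9hi and from 289.2 through 182.1 and 159.9 to 126.9 CPM in the whole tumour. The widest step in both libraries was thus the one between cells below 250 CPM of Vim and the next bin. H2-D1 shared that step but was not ordered beyond it, at 318.6, 235.6, 221.0 and 238.4 CPM over Vim in the whole tumour and 250.9, 165.6, 132.6 and 141.3 CPM in CD9hi, where the last 2 intervals do not overlap. Over Epcam it was at 228.5, 225.2, 296.7 and 305.8 CPM in the whole tumour and went up from 107.4 through 161.1 and 186.4 to 194.9 CPM in CD9hi. B2m climbed over Vim in CD9hi, from 249.4 to 409.9 CPM, and ran between 257.3 and 306.1 CPM in the whole tumour.

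**Figure D2:**
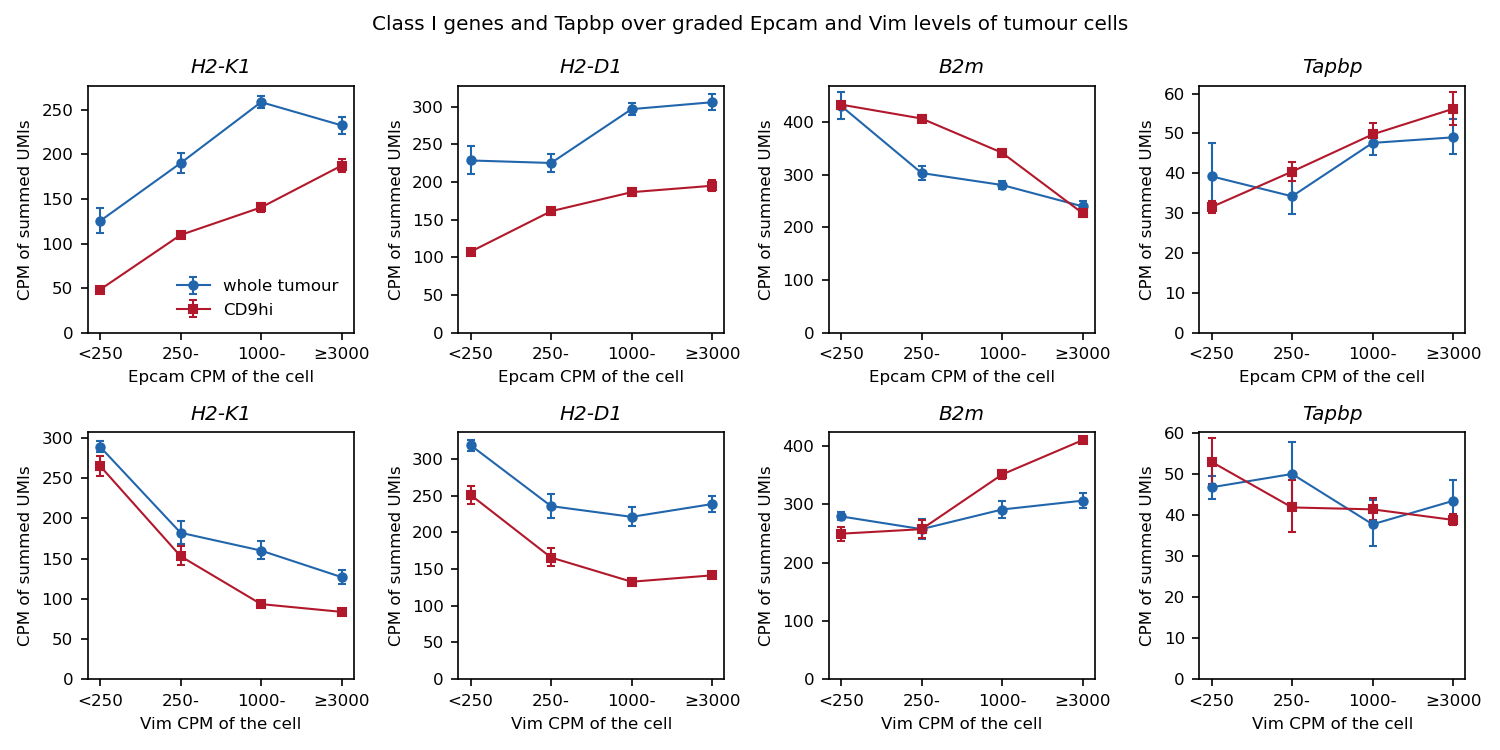
Levels of H2-K1, H2-D1, B2m and Tapbp (vertical axis, CPM of summed UMIs from 0) over 4 graded bins of Epcam and of Vim CPM of the cell (horizontal axis), circles for the whole tumour and squares for CD9hi, with 95% exact Poisson intervals. H2-K1 in CD9hi climbs from 48.2 to 187.5 CPM with Epcam as B2m goes down from 433.5 to 227.1 CPM.

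When both markers were graded together, 22 bins held at least 50 cells, 11 in each library. H2-K1 ran from 45.0 CPM, in CD9hi cells of Epcam below 250 and Vim from 1000 to 3000 CPM, to 374.7 CPM in whole-tumour cells of Epcam from 250 to 1000 and Vim below 250 CPM. Within an Epcam bin H2-K1 was not always lower with more Vim: in CD9hi cells with Epcam from 250 to 1000 CPM it was at 89.0 CPM for Vim from 1000 to 3000 CPM and 111.2 CPM above that. Pearson's r of log2(CPM + 10) over the 22 bins was 0.91 between H2-K1 and H2-D1 (0.85 within the whole tumour and 0.96 within CD9hi). Between H2-K1 and B2m it was -0.55 (-0.57 and -0.49). H2-K1 correlated with Epcam at 0.74 and with Vim at -0.76, and B2m with Epcam at -0.73. Bins of a library share that library and its depth, so these values describe the bins and carry no p.

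The library difference of the heavy chains was smaller within 3 of the 4 quadrants than over all tumour cells and wider in the Epcam-low Vim-low quadrant, whose acinar, islet and immune marker levels are given above. For H2-K1 the log2 ratio of CD9hi over whole tumour was -0.20 (-0.27 to -0.13) in Epcam-high Vim-low, -0.48 (-0.58 to -0.38) in Epcam-high Vim-high, -0.53 (-0.65 to -0.41) in Epcam-low Vim-high and -1.68 (-1.99 to -1.39) in Epcam-low Vim-low cells. For H2-D1 it was -0.45, -0.61, -0.63 and -1.17. With equal weight given to the 4 quadrants, an alternative added after seeing the data, the ratio was -0.74 for H2-K1 and -0.70 for H2-D1 in place of -1.25 and -0.95. Each heavy chain was thus lower in CD9hi in every quadrant, by less than 1.5-fold for H2-K1 in 3 of 4. B2m was lower in CD9hi in Epcam-high Vim-low cells, at -0.20 (-0.27 to -0.14), and higher in the other 3 quadrants, at 0.39, 0.28 and 0.40. Of the 9 genes, 2 were lower and 2 higher in Epcam-high Vim-low cells, beside 17.7% and 15.7% of genes with a UMI. In Epcam-high Vim-high cells 3 were lower (23.6% of genes), in Epcam-low Vim-high cells 3 (20.5%), and in the 171 and 83 Epcam-low Vim-low cells 7 (16.7%), with 0 higher in these quadrants, beside 7.65%, 9.16% and 30.1% of genes.

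**Figure D3:**
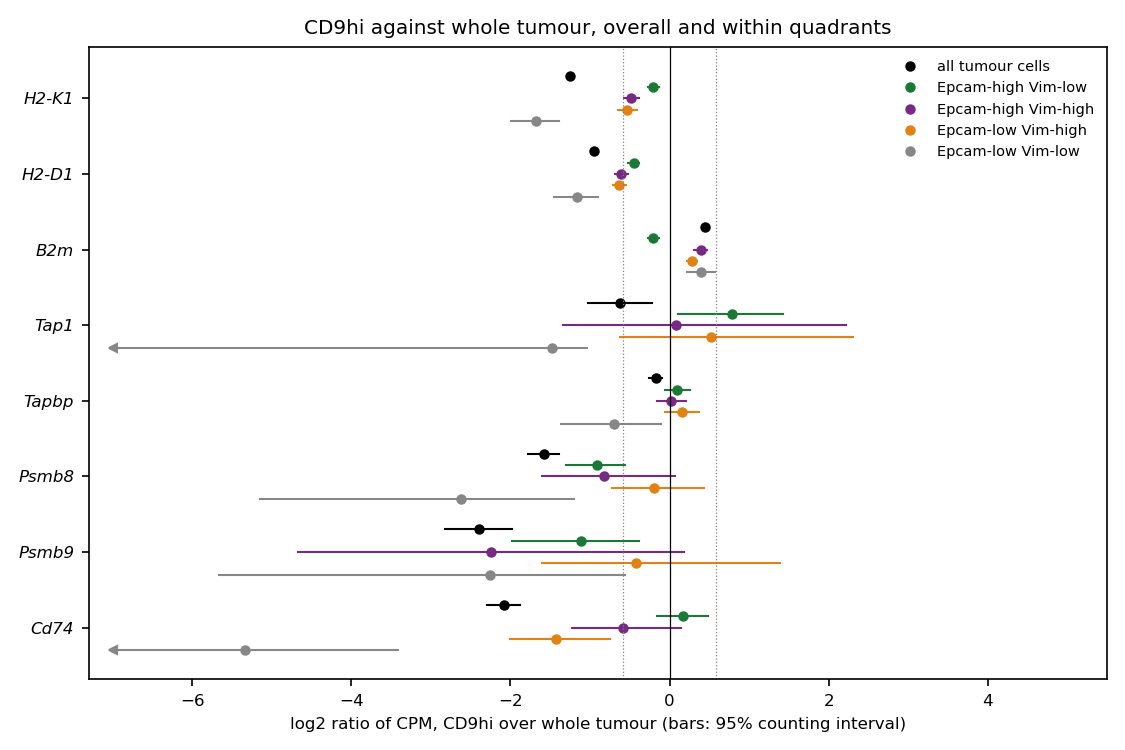
Log2 ratio of CPM in CD9hi over the whole tumour (horizontal axis) for 8 genes (vertical axis) in all tumour cells and in each quadrant, bars 95% counting intervals, dotted lines the 1.5-fold rule and arrowheads an interval running past the axis. The all-cell ratio of H2-K1, -1.25, lies left of 3 of its 4 quadrant values, and the Epcam-high Vim-low ratio of B2m, -0.20, lies left of 0 while the others lie right of it.

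Of the loading genes, Tapbp, which bridges the transporter and the heavy chain, varied least with the library. It was at 45.4 CPM (43.3 to 47.5) in whole-tumour and 40.2 CPM (39.1 to 41.4) in CD9hi tumour cells, a log2 ratio of -0.17. Its quadrant levels in the order above were 47.2, 51.8, 31.2 and 48.2 CPM in the whole tumour and 50.5, 52.5, 34.8 and 29.4 CPM in CD9hi. Both Epcam-high quadrants thus stood at like levels, with overlapping intervals within and between libraries, and the Epcam-low Vim-high cells stood below them by a log2 ratio of -0.59 (-0.82 to -0.38) in the whole tumour and -0.54 (-0.68 to -0.40) in CD9hi. Thinned shares of cells with a Tapbp UMI were 20.8% and 13.7% in Epcam-high Vim-low and Epcam-low Vim-high whole-tumour cells, and 21.3% and 16.2% in CD9hi, beside 16.6% in acinar-enzyme-high cells. Over the 22 bins Tapbp correlated with H2-K1 at 0.62.

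Tap1, the transporter subunit, was near the limit of what these libraries show, with 79 UMIs in whole-tumour and 157 in CD9hi tumour cells. Its level was 2.03 and 1.32 CPM, a log2 ratio of -0.63 (-1.02 to -0.21). In Epcam-high Vim-low cells the direction was the other one, with 2.06 CPM for the whole tumour and 3.52 for CD9hi, a log2 ratio of 0.78 (0.11 to 1.43). The CD9hi UMIs of this quadrant lay in 15 of 486 cells. In its cells with no UMI of the interferon-stimulated genes listed below, Tap1 was at 1.10 CPM for the whole tumour and 0.146 CPM, on 1 UMI, for CD9hi. Whole-tumour Epcam-low Vim-low cells had 20 UMIs (8.77 CPM) and the 83 CD9hi cells of that quadrant 0, so its level in CD9hi was lower by a log2 ratio of at least 1.48 in size (-1.48 with 3 counts in place of 0). Thinned, 0.994% of whole-tumour and 0.606% of CD9hi tumour cells had a Tap1 UMI, beside 1.66% of whole-tumour acinar-enzyme-high cells. No class that lacks Tap1 was at hand as a background.

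Psmb8 and Psmb9, the immunoproteasome subunits among the members, had the largest library difference of the class I route. Psmb8 was at 11.5 CPM (10.4 to 12.6) in whole-tumour and 3.83 CPM (3.48 to 4.19) in CD9hi tumour cells, a log2 ratio of -1.58 (-1.77 to -1.39). Psmb9 was at 3.32 and 0.631 CPM, a log2 ratio of -2.39 (-2.83 to -1.98). Within quadrants, in the order above, the Psmb8 library ratios were -0.91 (-1.30 to -0.55), -0.82 (-1.60 to 0.07), -0.19 (-0.72 to 0.43) and -2.62 (-5.15 to -1.20). Those of Psmb9 were -1.11 (-1.98 to -0.39), -2.24 (-4.67 to 0.18), -0.42 (-1.61 to 1.39) and -2.25 (-5.66 to -0.56). For each gene the intervals in both Vim-high quadrants thus reached past 0. Both genes were highest in Epcam-low Vim-low and Epcam-high Vim-low cells of the whole tumour, at 22.4 and 14.3 CPM for Psmb8 and 12.3 and 3.78 CPM for Psmb9. In the order of quadrants above Psmb8 was at 14.3, 3.03, 4.62 and 22.4 CPM in the whole tumour and 7.55, 1.74, 4.10 and 3.15 CPM in CD9hi. Unlike the heavy chains, Psmb8 was thus lowest in Epcam-high Vim-high cells, with intervals of 1.79 to 4.78 and 3.09 to 6.63 CPM against Epcam-low Vim-high cells that overlap in the whole tumour, and 1.29 to 2.30 and 3.67 to 4.57 CPM that do not in CD9hi. In graded Vim bins Psmb8 was at 16.7 CPM (whole tumour) and 10.9 CPM (CD9hi) below 250 CPM of Vim, and between 1.18 and 4.05 CPM in every higher bin of either library. Thinned shares of cells with a Psmb8 UMI were 4.82% in the whole tumour and 1.43% in CD9hi, beside 6.08% of acinar-enzyme-high cells of the whole tumour. The constitutive subunits did not share the difference: Psmb5, Psmb6 and Psmb7 were at 270.6, 321.4 and 213.8 CPM in the whole tumour and at 297.6, 347.1 and 253.3 CPM in CD9hi. Psmb10, a further immunoproteasome subunit, did not share the library difference by the 1.5-fold rule either. The 7 measured proteasome genes outside the members, Psmb10 among them, were neither higher nor lower in CD9hi. Between quadrants of CD9hi, Psmb10 went the other way from Psmb8 and Psmb9. Its log2 ratio of Epcam-low Vim-high over Epcam-high Vim-low cells was 0.86, beside -0.89 for Psmb8 and -1.42 for Psmb9.

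Nlrc5, the class I transactivator, was barely captured, with 11 UMIs in 2154 whole-tumour and 14 UMIs in 5058 CD9hi tumour cells. That is 0.283 and 0.118 CPM, a log2 ratio of -1.28 (-2.51 to 0.02) whose interval reaches past 0. Its quadrant counts in the order above were 8, 0, 1 and 2 UMIs in the whole tumour and 5, 1, 7 and 1 in CD9hi. With equal quadrant weights the ratio changed sign, to 0.36. In the whole tumour a difference in Nlrc5 between quadrants was not detectable at this depth. In CD9hi its level was lower than in Epcam-high Vim-low cells by a log2 ratio of -2.56 (-4.39 to -0.52) in Epcam-low Vim-high and -3.38 (-9.39 to -0.66) in Epcam-high Vim-high cells, the latter on 1 UMI against 5.

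In CD9hi a small set of cells held most of the Psmb8, Psmb9 and Tap1 UMIs. Tumour cells with at least 1000 CPM over 12 interferon-stimulated genes (Isg15, Ifit1, Ifit1bl1, Ifit2, Ifit3, Ifit3b, Rsad2, Oasl2, Usp18, Cmpk2, Oas1a and Irf7, none of them a member) numbered 8 in the whole tumour (0.371%, exact binomial interval 0.16 to 0.73) and 96 in CD9hi (1.90%, 1.54 to 2.31). In CD9hi, 75 of the 96 were Epcam-low Vim-high, a quadrant with 63.7% of the cells. The share of interferon-high cells was 2.33% in it and 2.26% in Epcam-high Vim-low cells. H2-K1 was at 505.1 CPM in these 96 cells and 90.3 CPM in the other tumour cells, a log2 ratio of 2.48 (2.39 to 2.57). B2m was at 1492 and 364.3 CPM, a ratio of 2.03 (1.98 to 2.08), so that both chains of class I were high in the same cells. Psmb8 was at 116.8 and 1.71 CPM, a ratio of 6.09 (5.82 to 6.37), and these 1.90% of cells held 255 of its 455 UMIs. Tap1 was at 42.6 and 0.548 CPM (6.28), Psmb9 at 23.4 and 0.206 CPM (6.81), H2-D1 at 747.9 and 135.5 CPM (2.47) and Tapbp at 143.8 and 38.3 CPM (1.91). Nlrc5 had 9 UMIs in the 96 cells and 5 in the other 4962.

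Of the 9 genes, 8 were at least 1.5-fold higher in CD9hi interferon-high cells, where 19.5% of genes with a UMI were higher, and 1 was lower (3.45% of genes). The lower gene was Cd74, on 2 UMIs, with a ratio of -1.29 (-4.66 to 0.25). In the 8 whole-tumour cells 8 were higher and 0 lower, beside 17.7% and 4.22% of genes with a UMI. Many genes have 0 UMIs in so few cells and cannot be called. Among genes with a mean of at least 5 CPM, as all 9 had here, 39.1% were higher and 10.8% lower. The ratios ran from 0.90 (-0.24 to 1.71) for Tapbp to 6.35 for Nlrc5, the latter on 2 against 9 UMIs. Cd74 had 0 UMIs there, and its limit of 3 counts lies above the level of the other cells, so no ratio is given. Summed immune markers were at 12.8 CPM in the 96 cells, with 9 of 20 detected, and fibroblast markers at 407.1 CPM beside 132.8 CPM in the other cells. Without cells that hold stromal or islet markers, 78 interferon-high and 4760 other cells remained and the ratios were 2.52 for H2-K1, 1.96 for B2m and 6.11 for Psmb8, with 8 genes higher and 1 lower as before. After thinning, 72.3% of interferon-high and 31.9% of other CD9hi tumour cells had an H2-K1 UMI, and 33.0% and 0.700% a Psmb8 UMI.

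The levels also climbed below that threshold. In CD9hi cells with 0, above 0 to 250, 250 to 1000 and at least 1000 CPM of the list (4143, 679, 140 and 96 cells), H2-K1 was at 74.5, 141.2, 299.0 and 505.1 CPM. B2m was at 339.0, 420.8, 837.0 and 1492 CPM and Psmb8 at 0.716, 3.88, 20.7 and 116.8 CPM. In the whole tumour (1640, 472, 34 and 8 cells) H2-K1 was at 198.7, 302.5, 587.2 and 594.0 CPM and Psmb8 at 8.30, 16.6, 58.7 and 96.3 CPM. Each of the 8 genes other than Cd74 thus went up from bin to bin in both libraries, though with overlapping intervals between the upper bins of the whole tumour for H2-K1, H2-D1 and Psmb8 among others. Cells with no UMI of the list still differed between libraries, by 8.30 against 0.716 CPM for Psmb8. Median depth in the lower bins was 17036 and 20050.5 UMIs in the whole tumour, and its part in the difference between them was not tested.

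**Figure D4:**
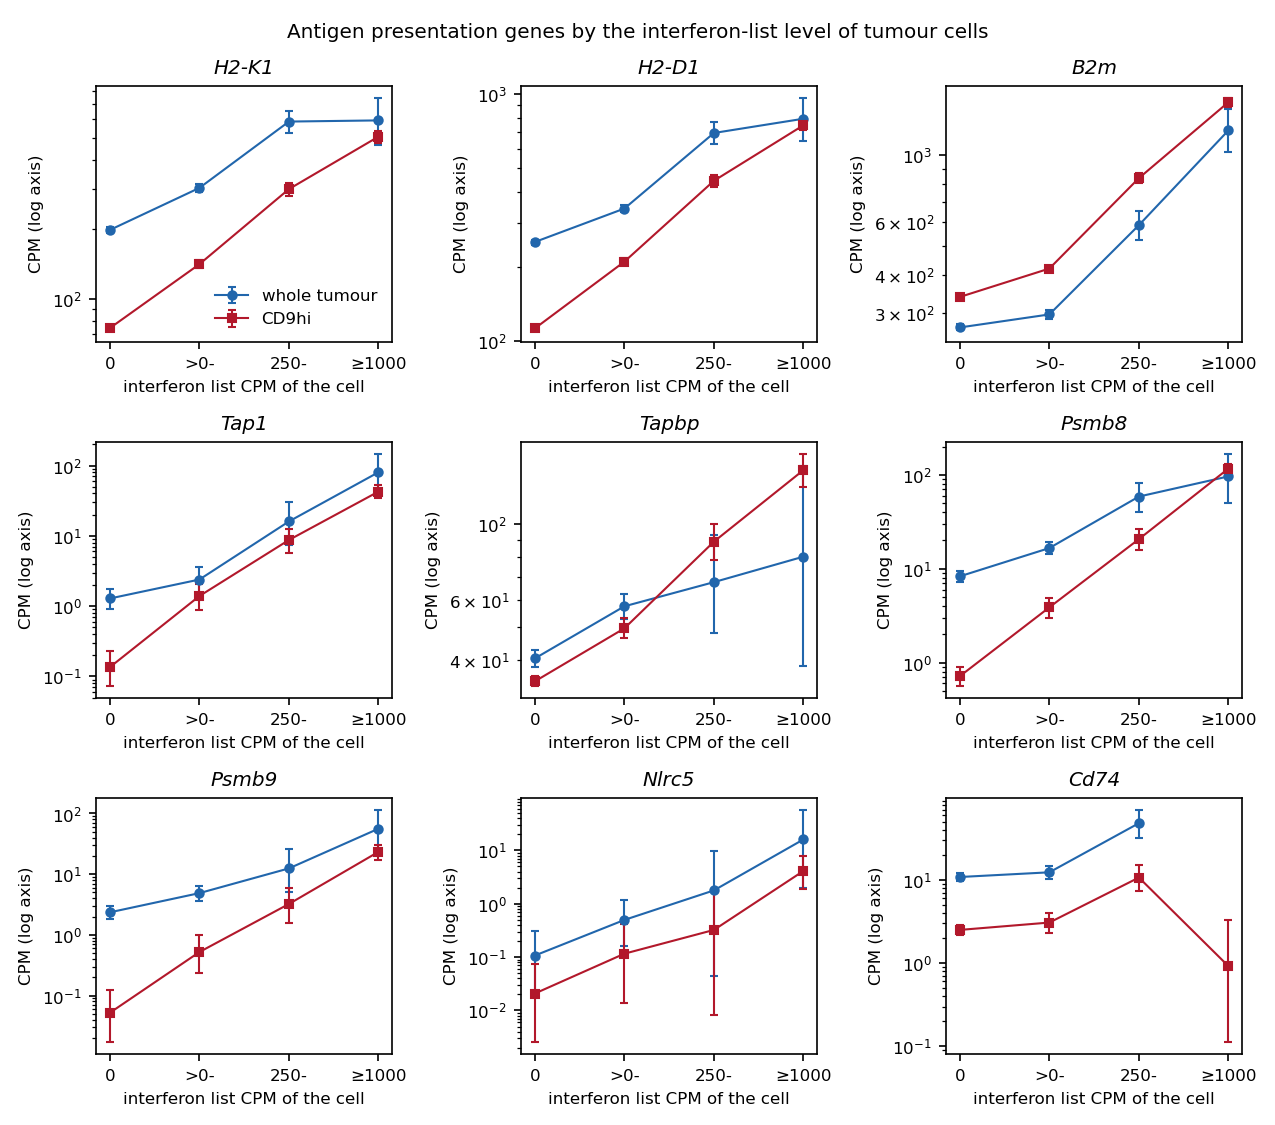
Level of the genes (vertical axis, CPM on a log scale) in tumour cells binned by their summed CPM of 12 interferon-stimulated genes (horizontal axis), circles for the whole tumour and squares for CD9hi, with 95% exact Poisson intervals and classes with no UMI left out. Psmb8 in CD9hi climbs from 0.716 to 116.8 CPM and H2-K1 from 74.5 to 505.1 CPM.

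The quadrants were also compared among cells with no UMI of the list, an alternative added after seeing the data. H2-K1 was then at 234.2, 166.6, 90.5 and 331.1 CPM in the whole tumour and at 189.0, 116.9, 48.9 and 66.0 CPM in CD9hi, in the order above. B2m was at 252.4, 241.9, 328.5 and 308.9 CPM and at 188.0, 298.0, 368.0 and 345.7 CPM. The ratios of Epcam-low Vim-high to Epcam-high Vim-low cells were -1.37 and -1.95 for H2-K1 and 0.38 and 0.97 for B2m, as wide as or wider than over all cells except for H2-K1 in the whole tumour. This did not hold for all members. In CD9hi Epcam-high Vim-low and Epcam-low Vim-high cells Tap1 was then at 0.146 and 0.135 CPM. Psmb8 was at 1.17 and 0.705 CPM, with overlapping intervals, and Psmb9 had 1 and 4 UMIs. In the whole tumour Psmb8 was still at 10.5 and 3.70 CPM in these quadrants. Over all tumour cells with no UMI of the list, the library ratio widened to -3.53 for Psmb8, -5.37 for Psmb9 and -3.21 for Tap1. Intervals were not computed for these ratios. In CD9hi they rest on 1, 0, 4 and 0 Psmb9 UMIs and 1, 3, 9 and 0 Tap1 UMIs by quadrant, in the order above.

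Detection of the genes in single cells was read after thinning. Of 97 whole-tumour cells with a Psmb8 UMI, 78 (80.4%) had an H2-K1 UMI, beside 55.8% of cells without Psmb8. In CD9hi it was 57 of 71 (80.3%) beside 31.2%. Outside the interferon-high cells it was 22 of 34 (64.7%, interval 46.5 to 80.3) beside 31.7%. Each class was thinned in its own random draw, so these counts cannot be subtracted from each other. Cells with an H2-K1 UMI had an H2-D1 UMI in 71.9% of cases in the whole tumour and 58.5% in CD9hi, beside 56.1% and 35.4% of cells without H2-K1. For B2m the shares were 70.9% beside 64.6% in the whole tumour and 76.8% beside 76.8% in CD9hi. The gap in detection was thus wider for H2-D1 than for B2m in both libraries.

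Unthinned, Cd74 had a UMI in 5.11% of whole-tumour and 3.14% of CD9hi tumour cells. Tumour cells held 455 UMIs of it in the whole tumour (11.7 CPM) and 329 in CD9hi (2.77 CPM), a log2 ratio of -2.08 (-2.29 to -1.87). By quadrant in the order above it was at 10.6, 4.20, 4.30 and 63.6 CPM in the whole tumour and 11.9, 2.84, 1.63 and 1.05 CPM in CD9hi. In Epcam-high Vim-low cells the libraries did not differ beyond counting error, at a ratio of 0.17 (-0.16 to 0.48). Cells with at least 10 Cd74 UMIs, a limit chosen after seeing the values, numbered 10 in the whole tumour and held 252 of 455 UMIs (55.4%). Without them the level was 5.26 CPM. Of these 10 cells 9 had an Epcam UMI, 9 an H2-Aa UMI (a class II chain), 7 a C1qa UMI (a macrophage complement gene), 5 a Tyrobp UMI (a myeloid adaptor) and 1 Cd79a UMIs (a B-cell receptor chain). In CD9hi, 4 such cells held 93 of 329 UMIs (28.3%), and the level without them was 1.99 CPM. The 63.6 CPM of whole-tumour Epcam-low Vim-low cells came down to 13.0 CPM without 2 cells that held 116 of 145 UMIs. Summed immune markers in that quadrant were at 144.3 CPM with 11 of 20 detected, beside 7.17 to 12.6 CPM in the other quadrants of the library, and summed islet markers at 13489 CPM with 5 of 6 detected.

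Class II genes themselves were close to absent from tumour cells. In whole-tumour tumour cells H2-Aa, H2-Ab1 and H2-Eb1 were at 1.34, 2.01 and 2.11 CPM, and in CD9hi at 0.589, 0.790 and 0.589 CPM. Ciita, the class II transactivator, had 1 and 3 UMIs. Thinned, 2.09% of whole-tumour and 1.13% of CD9hi tumour cells had a Cd74 UMI. Acinar-enzyme-high cells of the whole tumour, not known to use class II, had a Cd74 UMI in 5.52% of cells, above the share in whole-tumour tumour cells. They also held 24 H2-Ab1 and 44 C1qa UMIs, so they are no class shown to lack Cd74. Whether the share in tumour cells is background was not tested. With cells holding any of 7 other immune genes left out, the Cd74 library ratio was -1.88 and the CD9hi ratio of Epcam-low Vim-high to Epcam-high Vim-low cells -1.93 in place of -2.87. The part of immune transcripts in the Cd74 values was not tested beyond this.

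The Ptprc-positive cells served as the immune reference, defined by a Ptprc UMI alone. At least 3 other immune markers were found in 3 of the 13 whole-tumour cells and 26 of the 30 CD9hi cells. Summed ductal epithelial and immune markers were at 11081 and 876.8 CPM in the whole tumour and at 2966 and 22832 CPM in CD9hi. The whole-tumour class is thus not a reference for professional presentation. Cd74 was at 3462 CPM in the 13 whole-tumour cells, found in 30.8% of them, and at 6083 CPM in the 30 CD9hi cells, found in 76.7%. H2-Aa, H2-Ab1 and H2-Eb1 were at 814.5, 1363 and 933.3 CPM in the whole tumour and 1718, 1773 and 1600 CPM in CD9hi. H2-K1 was at 605.2 and 544.1 CPM, H2-D1 at 876.8 and 721.0 CPM and B2m at 865.4 and 1188 CPM. The levels of H2-K1, H2-D1 and Psmb8 in CD9hi interferon-high tumour cells thus had intervals that overlap those of the CD9hi Ptprc-positive cells, while B2m was higher in the interferon-high cells, with 1441 to 1544 CPM against 1101 to 1280 CPM. Against tumour cells, 7 of 9 genes were higher and 0 lower in the whole tumour, beside 16.8% and 9.84% of genes with a UMI. In CD9hi 8 were higher and 0 lower, beside 17.5% and 9.18%. Genes without a ratio are Tap1 and Nlrc5 in the whole tumour and Nlrc5 in CD9hi, each at 0 UMIs. The labelled classes differ in makeup: whole-tumour Ptprc-positive cells held 1459 CPM of Epcam, 67.9 CPM of summed macrophage markers and 0 of C1qa, whereas the CD9hi cells held 298.7 CPM of Epcam and 20698 CPM of macrophage markers, 7 of 7 detected.

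In the acinar-enzyme-high cells of the whole tumour, secretory cells in which the 16 acinar genes took 345160 CPM, H2-K1 was at 268.2 CPM, H2-D1 at 198.8 CPM and B2m at 213.0 CPM. Psmb8 was at 19.1 CPM and Psmb9 at 6.89 CPM, with log2 ratios over tumour cells of 0.74 (0.46 to 1.02) and 1.06 (0.55 to 1.53), making 2 genes higher and 0 lower. That count depends on the settings: 5 were higher on CPM without mitochondrial, ribosomal and acinar genes, 7 with median-of-ratios scaling, and 0 higher with 2 lower when the acinar limit was 10%. Median-of-ratios scaling takes a shift of -1.05 off the log2 ratio of every gene. Shares of all genes were not computed under these other settings, so their counts cannot be set against genes in general. On plain CPM, 3.87% of genes with a mean of at least 5 CPM, 7 of the 9 among them, were higher and 77.8% lower. Of all genes with a UMI 10.9% were higher and 44.2% lower on this scale, whose total includes the acinar genes. On the CPM without those genes H2-K1 was higher by 0.82 and B2m by 0.20 where the plain ratios were 0.21 and -0.41, so the direction of B2m turns with the scaling.

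**Figure D5:**
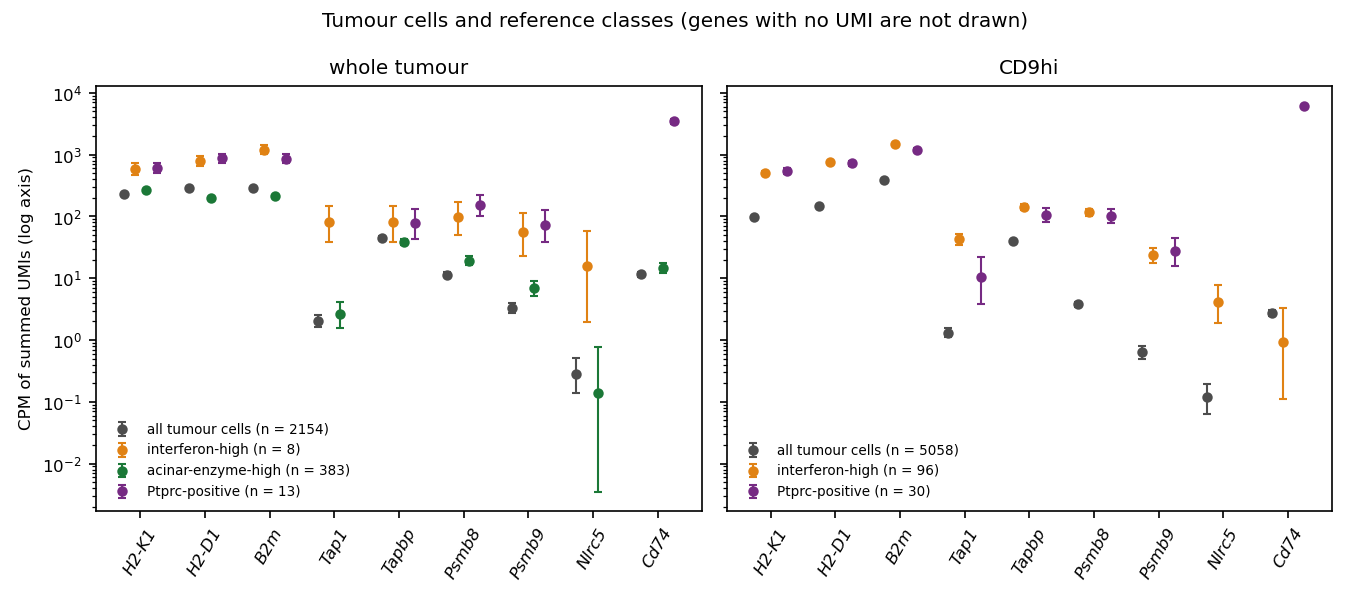
Level of the 9 genes (horizontal axis) in tumour cells, interferon-high tumour cells, acinar-enzyme-high cells and Ptprc-positive cells of each library (vertical axis, CPM on a log scale), bars 95% exact Poisson intervals, with genes at 0 UMIs and the 4 CD9hi acinar-enzyme-high cells not drawn. Cd74 stands at 3462 and 6083 CPM in Ptprc-positive cells and 11.7 and 2.77 CPM in tumour cells, while B2m is highest in the interferon-high cells, at 1204 and 1492 CPM.

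Of 53 further genes of the pathway, 35 had a mean of at least 5 CPM in the library comparison. There 3 were at least 1.5-fold higher in CD9hi and 4 lower, beside 12% and 15.7% of all genes at that level, and their median log2 ratio was 0.01. The higher ones were Socs1, an inhibitor of interferon signalling, at 22.2 CPM against 5.15 CPM (2.10), Nfkb1, an NF-kB subunit (0.71), and Calr, a chaperone of class I loading (0.65). The lower ones were Ifi30, a thiol reductase of antigen processing (-0.99), H2-T23, a non-classical class I chain, at 22.3 against 43.0 CPM (-0.94), Rfxap, a subunit of the factor that binds the X box of these promoters (-0.81), and Ifngr1, an interferon gamma receptor chain (-0.63). Between Epcam-low Vim-high and Epcam-high Vim-low cells, 2 of 37 were higher and 6 lower in the whole tumour (11.5% and 18% of all genes), and 3 of 35 higher and 4 lower in CD9hi (10.6% and 18.3%). Socs1 was higher in both, at 1.58 and 1.19, and H2-T23 lower in both, at -0.90 and -1.12. H2-Q4, another class I gene, was lower in the whole tumour, at -3.21, and Tapbpl, a relative of Tapbp, was lower in CD9hi, at -1.28. Psmb10 was among the higher genes in CD9hi, at 0.86. In CD9hi interferon-high cells 17 of 40 were higher and 0 lower (13.6% and 3.86%), led by H2-Q7 (6.11), H2-Q4 (5.30) and Tap2, the other transporter subunit (4.87). In the whole tumour 19 of 41 were higher and 4 lower (39.1% and 10.8%), with Stat2, a signal transducer of type I interferon, the highest (4.55) and Tap2 at 3.35. Acinar-enzyme-high cells had 3 of 38 higher and 22 lower (3.87% and 77.8%), the higher being Tap2 (1.60), Psmb10, an immunoproteasome subunit (1.31), and Ctsl, a lysosomal protease (0.78). Ptprc-positive cells had 26 of 49 higher and 7 lower in the whole tumour (29.2% and 24.9%) and 29 of 48 higher and 2 lower in CD9hi (25.7% and 23.4%), with the class II chains H2-Aa, H2-Eb1 and H2-Ab1 and the protease Ctss at the top in CD9hi, between 11.08 and 11.50.

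Among 5629 genes ranked over the 22 bins, those most like the summed level of H2-K1, H2-D1 and B2m were Tcf7l2, a Wnt-pathway transcription factor (r = 0.90), H2-T23 (0.89), Tspan13 (0.89) and Ly6d (0.88). H2-K1 alone was most like Ocln, a tight-junction protein (0.96), Fxyd3 (0.95) and Prom1 (0.94), and H2-D1 most like Plaat3 (0.93), with H2-K1 itself at rank 5. B2m was most like Npc2, a lysosomal sterol carrier (0.86), and Rnase4 (0.83). Tapbp was most like Hmgcs1, an enzyme of sterol synthesis (0.83).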

How the data were processed

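The authors deposited whole-number UMI counts for each feature and barcode, not normalized, per the file headers. The submitters' processing notes name Cell Ranger 7.0.0 and GRCm39, and the matrix header names version 6.1.2. Libraries were made with a 3′ droplet kit, per the labels' protocols, so CPM values are not per length and levels are not compared between genes. Reads of near-identical class I genes can be split between them, so H2-K1, H2-D1, H2-T23, H2-Q4 and H2-Q7 are uncertain. The H2 haplotype of the mice is not given in the labels, and class I reads that differ from the reference may be lost, in either library. Whole-tumour and CD9hi barcodes held 48287984 and 120451299 UMIs.

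The members and gene lists were chosen with earlier results of these data known. UMIs were summed over the cells of a class and divided by the class total to give CPM, with 95% exact Poisson intervals; ratios had 0.5 UMI added to each sum and 95% conditional binomial intervals. With 0 UMIs on 1 side the ratio was taken at 3 counts as a bound, and not given where both sides lay at or under that floor. A change of at least 1.5-fold was counted as higher or lower, with no test. Shares of cells have exact binomial intervals. For shares, cells were thinned to 5000 UMIs, and 142 whole-tumour and 109 CD9hi tumour cells were too shallow. Doublets were kept. As an alternative, 63 and 224 barcodes with the highest Scrublet scores were left out, since the automatic threshold marked 0.549% and 0.0196%. In each comparison up to 4 measured pathway genes with the largest and the smallest ratio could be named, and pattern neighbours were ranked by Pearson correlation over bins among genes with a mean of at least 20 CPM. Promoter windows came from RefSeq. Python 3.11.15, numpy 2.4.6, scipy 1.17.1, pandas 2.3.3, scanpy 1.11.5 and matplotlib 3.10.9 were used, and the computation of ratios was checked on simulated data. A further allele of the mouse line and a gene of the pathway list are not reported here.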

Additional observations from a re-analysis of the deposited data

Results flagged for a closer look

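The log2 ratio of B2m in CD9hi over the whole tumour had opposite signs in different quadrants of tumour cells: -0.20 in Epcam-high Vim-low cells, and 0.39 in Epcam-high Vim-high, 0.28 in Epcam-low Vim-high and 0.40 in Epcam-low Vim-low cells. Each of the 4 counting intervals stayed on its own side of 0. With 1 library a group the difference between quadrants was not tested.

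Tap1 also had opposite signs, 0.78 in Epcam-high Vim-low cells on 35 and 50 UMIs, and -1.48 in Epcam-low Vim-low cells, the latter a bound because CD9hi had 0 UMIs against 20. The 35 CD9hi UMIs lay in 15 cells. Among Epcam-high Vim-low cells with no interferon-list UMI, CD9hi had 1 Tap1 UMI (0.146 CPM) and the whole tumour 18 (1.10 CPM). Its level there was thus lower in CD9hi, with overlapping intervals. The Tap1 difference between quadrants was not tested either.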

How the results depend on the processing

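Over the alternatives tried, 207 counts of members lay within 1.5 times the main count, 15 were smaller and 6 larger, and of the single-member ratios 693 moved by less than their counting interval, 133 by more and 1 changed sign. Counting only members with a mean of at least 50 CPM gave 2 lower for CD9hi against whole tumour and 2 lower for Epcam-low Vim-high against Epcam-high Vim-low cells in each library, 5 higher in interferon-high cells of each library with 0 lower in CD9hi, and 0 higher in acinar-enzyme-high cells. With Epcam and Vim divided at 2000 CPM, 4 members were lower in each library. In whole-tumour cells without interferon-list UMIs 1 member was higher, Nlrc5. Under a 2-fold rule 0 were higher in CD9hi Epcam-low Vim-high cells and 1 in acinar-enzyme-high cells. With the interferon list at 500 or 2000 CPM, 0 were lower in CD9hi. Acinar-enzyme-high cells were the most dependent on the scaling: 5 higher on CPM without mitochondrial, ribosomal and acinar genes, 7 higher with median-of-ratios scaling, 2 lower with the mean of single-cell CPM, 0 higher and 2 lower with the acinar limit at 10%, and 1 lower against tumour cells without other immune UMIs. Shares of all genes were not computed under the alternatives, so these member counts cannot be set against genes in general. The cause of the changed counts was not tested, apart from the smaller number of members counted at 50 CPM. Equal quadrant weights turned Nlrc5 to 0.36. Thinned to 2000 UMIs, 1 member, H2-K1, in place of 4 had a share whose interval lay below that of Epcam-high Vim-low cells in whole-tumour Epcam-low Vim-high cells. Thinned shares were not counted in this way for genes other than the members, so no share of all genes stands beside these counts. Tumour cells with a GFP UMI gave no value, since there were 0. No paired analysis was possible because each group had 1 library. Depth limits Tap1, Psmb9 and Nlrc5, whose values rest on few UMIs.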
